A study of Mus musculus with 2 samples.

Results

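The genes described here make the prostaglandins, thromboxane and leukotrienes, the lipid mediators that cells form from arachidonic acid. The set has 9 members, Ptgs1, Ptgs2, Ptges, Hpgds, Tbxas1, Alox5, Alox5ap, Lta4h and Ltc4s, among 32285 genes in the count matrices. They were chosen by symbol, and each matched 1 row. They were read in tumours of motolimod-treated mice (Motolimod) and of control mice (Control). Motolimod is a drug that activates TLR8, a receptor for RNA inside endosomes. The labels give neither the dose nor the tumour model, and no strain, age or sex. They name 5 mice per group and 1 library per group, and do not say whether mice were pooled. The cells were enriched on beads for CD45, the surface marker of blood-derived cells, before droplet capture, so shares of cell types are also set by that step. With 1 library per group there is no replicate check and no test. Every interval below is a 95% interval that covers counting error only, and every difference is one between these libraries.

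Arachidonic acid is cut from membranes by phospholipases and then takes either of the routes described here. The cyclooxygenases Ptgs1, present in many resting cells, and Ptgs2, induced by inflammatory signals, turn it into prostaglandin H2. Terminal synthases convert that intermediate: Ptges to prostaglandin E2, Hpgds to prostaglandin D2 and Tbxas1 to thromboxane. On the other route the 5-lipoxygenase Alox5, helped by its membrane partner Alox5ap, makes leukotriene A4. Lta4h turns leukotriene A4 into leukotriene B4, an attractant of neutrophils, and Ltc4s joins it to glutathione to give the cysteinyl leukotrienes. Neutrophils, macrophages and mast cells are known sources of these lipids, and prostaglandin E2 is also made by many tumour cells.

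The Motolimod library held 62057685 unique molecular identifiers (UMIs, each counting 1 captured RNA molecule) in 10037 barcodes, and the Control library 127609378 in 8099. After filters, 8216 Motolimod and 6569 Control cells were kept, with medians of 3406.5 and 13345 UMIs per cell. The kept sets shared 72 barcodes. Clusters were computed without the 9 genes and gave 2990 Motolimod and 517 Control neutrophil-like cells, 4310 and 4260 monocyte/macrophage-like cells, and 151 and 375 dendritic cell-like cells. There were 76 Motolimod and 789 Control keratin-positive epithelial cells, taken as tumour cells by the rule used. Their keratin gene Krt8 stood at 1140 and 1234 CPM, that is UMIs of the gene per 1000000 UMIs of the population, and the defining markers Cdh1 and Krt7 were at 0 in the Motolimod cells. Of 11 neutrophil markers, 10 were above 50 CPM in the neutrophil-like cells of each library. All 10 macrophage markers passed that level in the monocyte/macrophage-like cells of each library.

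Levels below are UMIs of a gene summed over the cells of a population, scaled to CPM by all UMIs of that population. They are given for populations of at least 20 cells and are compared within a gene, between populations and libraries, not between genes. A cell-type level mixes how much of the gene each cell held with how many other transcripts it held, and median depth differed widely, from 1994 and 1904 UMIs in Motolimod and Control neutrophil-like cells to 46763 and 39031 in tumour cells. T cells, which are not a usual source of most of these enzymes, are given as a background. Clusters within a class carry the names of genes that set them apart: Retnlg Cxcr2, Ccl6 Hcar2 and Serf1 Creg1 neutrophils, and 8 groups of monocytes and macrophages. The Serf1 Creg1 neutrophils numbered 1874 in the Motolimod library and 33 in the Control library.

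**Figure D1:**
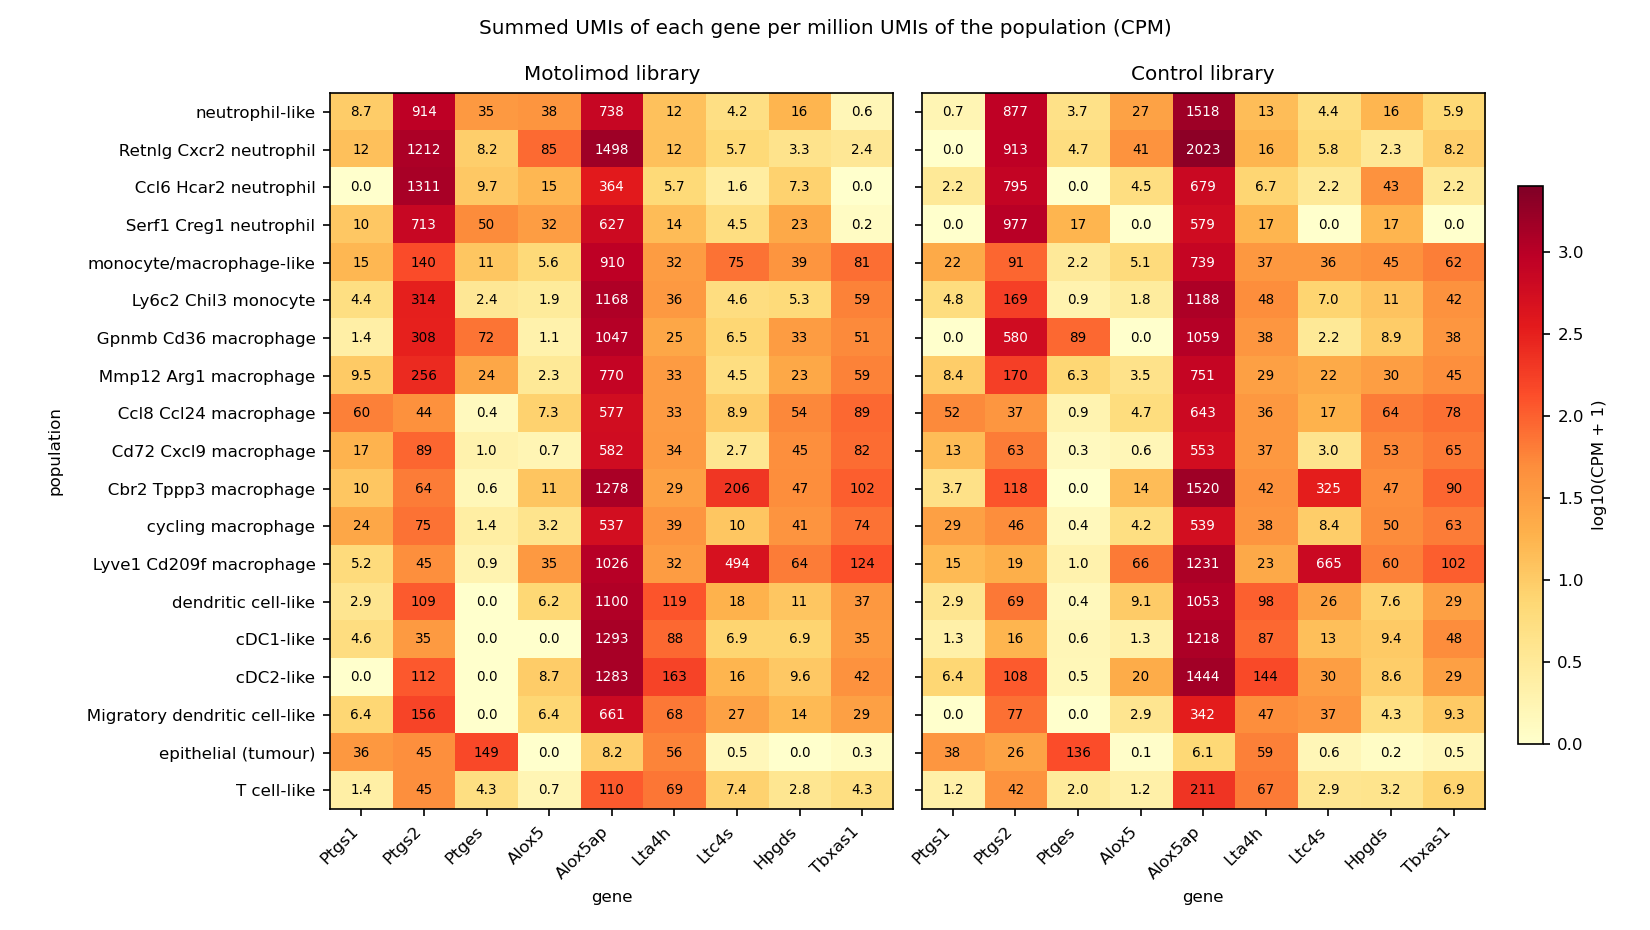
Level of each of the 9 genes (columns) in each population (rows) as CPM printed in the cells, coloured by log10(CPM + 1), with the Motolimod library in the left panel and the Control library in the right panel. Alox5ap was at 342 CPM or more in every neutrophil, monocyte, macrophage and dendritic row, whereas Ltc4s was highest in the Lyve1 Cd209f macrophages (494 and 665 CPM) and Ptges in tumour cells (149 and 136 CPM).

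The cells that held each transcript differed between the libraries most for Ptgs2, Ptges and Alox5, and also for Ptgs1 and Lta4h. Neutrophil-like cells held 53.6% of 11405 Ptgs2 UMIs in the Motolimod library and 14.4% of 8320 in the Control library. They held 53.9% of 477 Alox5 UMIs in the Motolimod library and 8.35% of 443 in the Control library. Tumour cells held 47.4% of 1227 Ptges UMIs in the Motolimod library and 95.6% of 4500 in the Control library. These shares follow cell numbers as well as levels: neutrophil-like cells were 36.4% of kept Motolimod cells and 7.87% of kept Control cells, and tumour cells were 0.925% and 12.0%. For Ptgs1, tumour cells held 141 UMIs beside 503 in monocyte/macrophage-like cells with motolimod, and 1191 beside 1355 in the Control library. For Lta4h the same counts were 218 beside 1066 with motolimod and 1881 beside 2262 in the Control library. Tbxas1 and Ltc4s stayed macrophage transcripts, with 93.4% and 92.9% of their UMIs in monocyte/macrophage-like cells of the Motolimod library and 91.6% and 89.1% in those of the Control library.

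**Figure D2:**
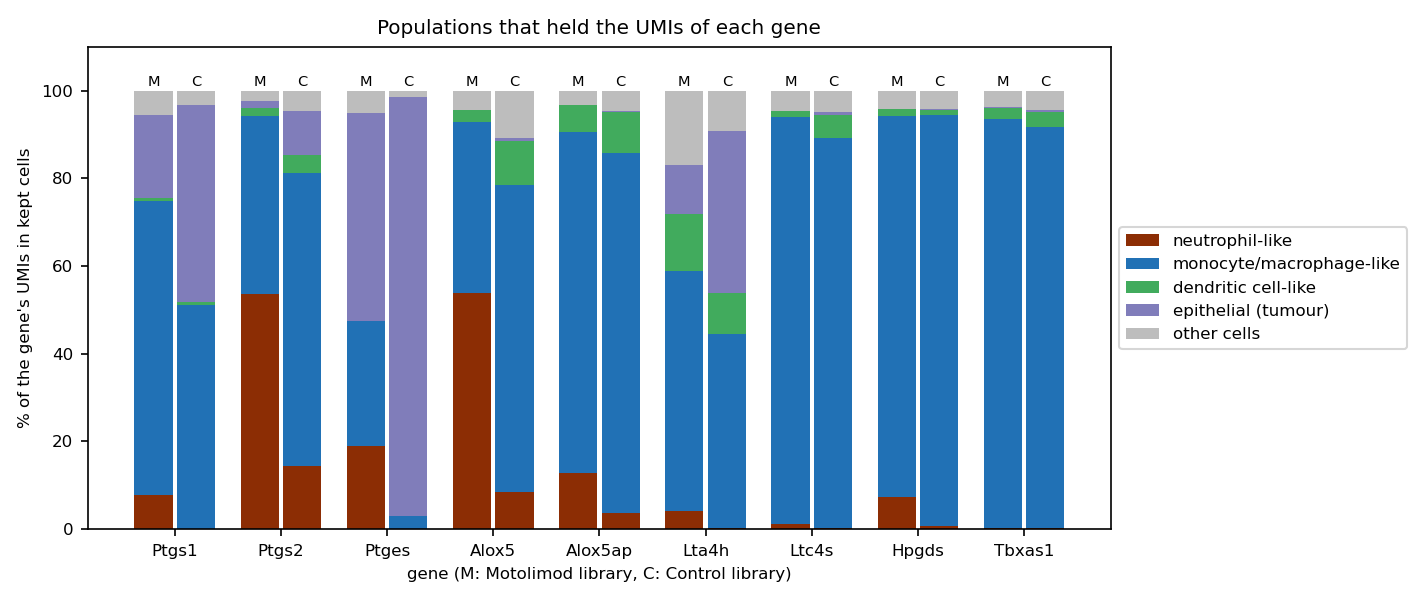
Percentage of each gene's UMIs in kept cells that lay in neutrophil-like, monocyte/macrophage-like, dendritic cell-like, tumour and other cells, as stacked bars, the Motolimod library (M) left of the Control library (C). The neutrophil-like part of the Ptgs2 bar covers 53.6% with motolimod and 14.4% in the Control library.

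Past a 1.5-fold difference in either direction, the neutrophil-like cells had 1 member higher (Ptges) and 1 lower (Alox5ap) of the 6 members with a mean level of at least 5 CPM. Over all 6847 genes at that level, 24.9% were at least 1.5-fold higher and 19% at least 1.5-fold lower with motolimod. In monocyte/macrophage-like cells 3 of 9 members were higher (Ptgs2, Ptges and Ltc4s) and 0 lower, where 8.79% of 8819 genes were higher and 5.62% lower. In dendritic cell-like cells Ptgs2 was the 1 member past 1.5-fold of 7, higher, where 12.8% of 8718 genes were higher and 6.13% lower. In tumour cells Ptgs2 was again the 1 member of 5, higher, where 3.35% of 9081 genes were higher and 2.16% lower. The median log2 ratio of the members was 0.04 in neutrophil-like, 0.30 in monocyte/macrophage-like, 0.29 in dendritic cell-like and 0.14 in tumour cells. The same medians over all genes were 0.10, 0.04, 0.08 and 0.06. Within single clusters the median over all genes left 0 by more than 0.1 in Ccl6 Hcar2 neutrophils (-0.24), Serf1 Creg1 neutrophils (-0.52), Gpnmb Cd36 macrophages (0.12) and migratory dendritic cells (0.17), and ratios there are to be read against those shifts. In single clusters, the genes past 1.5-fold in either direction made up 40.9% in Retnlg Cxcr2, 52.5% in Ccl6 Hcar2 and 46.6% in Serf1 Creg1 neutrophils. In monocyte and macrophage clusters they made up 11.3% in Ly6c2 Chil3, 37.8% in Gpnmb Cd36, 13.1% in Mmp12 Arg1, 13.1% in Ccl8 Ccl24, 8.91% in Cd72 Cxcl9, 24.8% in Cbr2 Tppp3, 10.6% in the cycling and 27.6% in the Lyve1 Cd209f cluster. They made up 36.8% in cDC1-like, 25.7% in cDC2-like and 39.4% in migratory dendritic cells, 20.7% in T cells and 53% in the fibroblast-like cells. A single ratio past 1.5-fold is thus common in the neutrophil clusters and rare in the Cd72 Cxcl9 cluster.

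**Figure D3:**
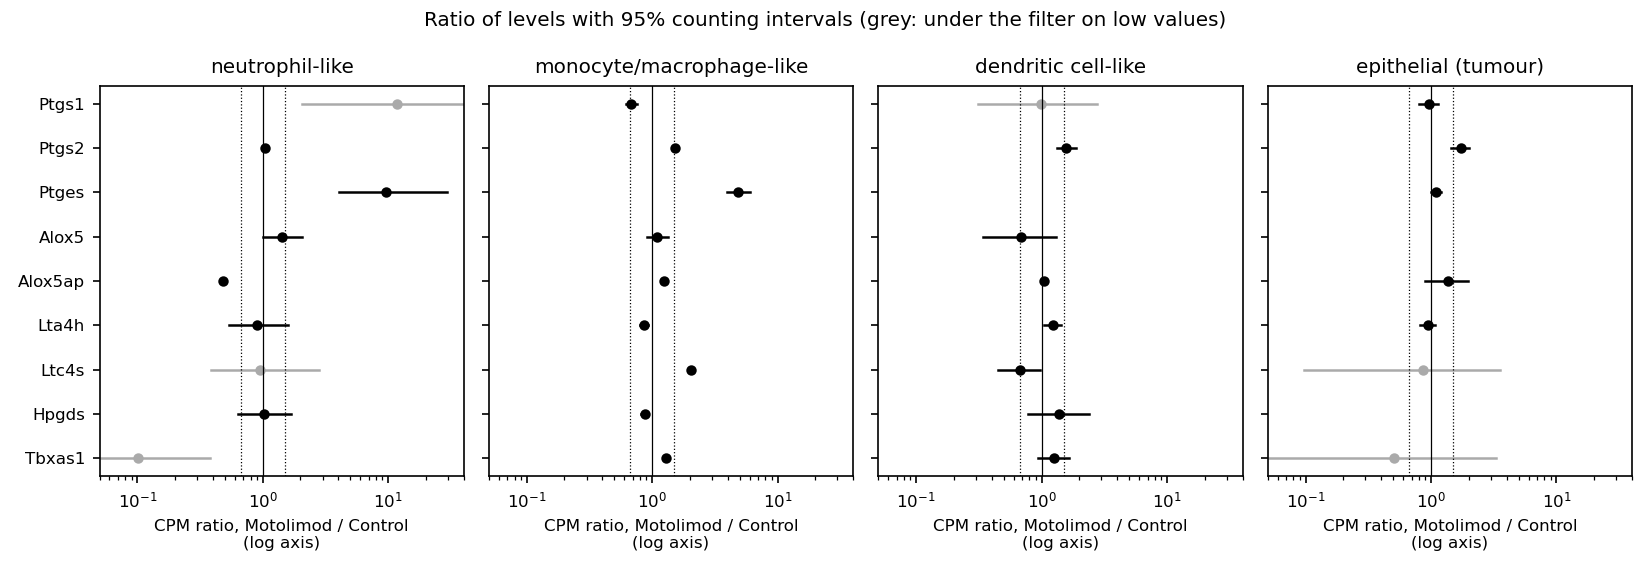
Ratio of levels, Motolimod over Control, of the 9 genes in the 4 main populations on a log axis, with 95% counting intervals as bars. Dotted lines mark 1.5-fold either way and grey points lie under the filter on low values; a gene at 0 in a library has no point. Ptgs2 lies right of the upper line in all panels but that of the neutrophil-like cells.

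Ptgs2, the inducible cyclooxygenase (chr1:150100031-150108227, plus strand, mm10, ENSMUSG00000032487), was a transcript of neutrophils first, of monocytes and several macrophage states second, in both libraries. In neutrophil-like cells it stood at 914 CPM with motolimod and 877 CPM in Control cells, a ratio of 1.04 (0.980 to 1.11), so the libraries did not differ beyond counting error. A Ptgs2 UMI was seen in 57.6% of the 2990 Motolimod and 65.2% of the 517 Control neutrophils, and in 42.7% and 46.2% of them once cells were thinned to 1000 UMIs each. Thinning dropped 160 Motolimod and 39 Control neutrophils of lower depth. The thinned share in T cells, at median depths of 5212.5 and 6854 UMIs, was 1.99% in the Motolimod library and 4% in the Control library. Motolimod neutrophils held 2.05 and Control neutrophils 2.31 Ptgs2 UMIs per cell. Ccl6 Hcar2 neutrophils had 1311 CPM with motolimod and 795 CPM in the Control library, a ratio of 1.65 (1.47 to 1.85). Retnlg Cxcr2 neutrophils had 1212 CPM against 913 CPM, a ratio of 1.33 (1.22 to 1.45). The Serf1 Creg1 cluster, 62.7% of the Motolimod neutrophils and 6.38% of the Control ones, had 713 CPM against 977 CPM, a ratio of 0.730 (0.564 to 0.962). Of its 59 Control UMIs, 32 lay in 5 of 33 cells, and without the 5 cells richest in Ptgs2 of each library the levels were 686 and 524 CPM (1.31). The median log2 ratio over all genes of that cluster was -0.52, and that of Ptgs2 was -0.45. In the Motolimod library the 2 other clusters overlapped in their intervals and both lay above the Serf1 Creg1 cluster, whereas the intervals of the 3 clusters of the Control library overlapped.

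The RefSeq promoter window of Ptgs2, from 250 bases before to 50 bases after the annotated start (GRCm38.p6, chr1:150099781-150100080, plus strand), is shown here because Ptgs2 is the inducible member and the one past 1.5-fold in the most main populations. Capitals mark matches to 6 short motifs searched on both strands: the E-box CACGTG, the CRE core TGACG, the NF-kB motif, the AP-1 motif TGANTCA, the GC box GGGCGG and the TATA box TATAAA.
Ptgs2: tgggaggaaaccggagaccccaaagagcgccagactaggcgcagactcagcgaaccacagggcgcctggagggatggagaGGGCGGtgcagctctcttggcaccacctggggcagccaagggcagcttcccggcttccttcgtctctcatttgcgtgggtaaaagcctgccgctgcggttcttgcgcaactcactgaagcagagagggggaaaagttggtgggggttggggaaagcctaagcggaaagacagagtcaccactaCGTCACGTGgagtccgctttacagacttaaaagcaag
Bases 264 to 272, counted from 1 at the 5′ end of this window, hold an E-box that overlaps a CRE core, and bases 81 to 86 hold a GC box. Of 32851 promoter windows of this length, 7.15% hold the E-box, 20.8% the CRE core and 35.7% the GC box. A match to the NF-kB letters searched, present in 5.56% of windows, is not in this one. Other forms of that motif and bases outside the window were not searched. The match is a description of the letters and was not tied to the levels.

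Over all monocyte/macrophage-like cells Ptgs2 was at 139.5 CPM with motolimod and 91.1 CPM in the Control library, a ratio of 1.53 (1.47 to 1.59). The call ends when each cell counts equally (1.24), when cells are thinned to 1000 UMIs (1.39), when cells are gated one by one (1.44) under median-of-ratios scaling (1.49) and at a finer clustering (1.4996). Ly6c2 Chil3 monocytes had 314 CPM against 169 CPM (ratio 1.85, 1.72 to 1.99). Mmp12 Arg1 macrophages had 256 CPM with motolimod and 170 CPM in the Control library (1.504, 1.36 to 1.66), and the cycling macrophages had 74.7 and 46.3 CPM (1.62, 1.39 to 1.88). Without the 5 richest cells of each library the last 2 ratios were 1.44 and 1.28, neither past 1.5-fold. Gpnmb Cd36 macrophages had 308 CPM against 580 CPM (0.531, 0.464 to 0.610) and Cbr2 Tppp3 macrophages 64.2 CPM against 118 CPM (0.545, 0.438 to 0.685). Both values rest on few Control cells. In the Gpnmb Cd36 cluster 5 of the 61 Control cells held 131 of 262 Ptgs2 UMIs, and without the 5 richest cells of each library the levels were 270 and 341 CPM (0.793). In the Cbr2 Tppp3 cluster 5 of the 141 Control cells held 51 of 95 UMIs, and the levels without such cells were 59.7 and 58.7 CPM (1.02), so the difference was then gone. Summed over 11 neutrophil markers, the monocytes had 820 CPM with motolimod and 562 CPM in the Control library, all 11 detected in each. The Mmp12 Arg1 macrophages had 482 CPM and 714 CPM, with Ly6g at 0 in both. The part of neutrophil RNA in these ratios was not tested.

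Dendritic cells and tumour cells held Ptgs2 at levels far below those of neutrophils. Dendritic cell-like cells had 109 CPM with motolimod and 69.0 CPM in the Control library (1.58, 1.33 to 1.87), but the ratio was 1.30 after thinning, 1.25 under a stricter cell filter, 1.45 with doublets kept, 1.499 under median-of-ratios scaling and 1.32 without the 5 richest cells of each library. The migratory type, dendritic cells on their way to lymph nodes, had 156 CPM against 76.6 CPM (2.04, 1.53 to 2.71), and the cDC2-like type 112 CPM against 108 CPM (1.03, 0.814 to 1.30). In the migratory type 5 of 47 Motolimod cells held 60 of 97 Ptgs2 UMIs, and 5 of 134 Control cells held 45 of 107. The ratio without those cells was 1.47. The Motolimod cells of this type also had more macrophage marker RNA and less migratory marker RNA, given below with Tbxas1. The part of macrophage RNA in the Ptgs2 ratio was not tested. Tumour cells had 45.4 CPM with motolimod and 26.4 CPM in the Control library (1.72, 1.45 to 2.02), or 2.33 and 1.06 UMIs per cell. Of the 177 Motolimod UMIs, 84 lay in 5 of 76 cells, and 131 of the 837 Control UMIs in 5 of 789. Without those cells the levels were 25.8 and 22.4 CPM (1.15), which ends the call. The tumour ratio was 1.48 with doublets kept, 1.49 with cells gated one by one and 2.88 after thinning. In the same tumour cells the 11 neutrophil markers summed to 91.5 CPM with motolimod and 24.8 CPM in the Control library, all 11 detected in each and none at 50 CPM. Ptgs2 in T cells was 45.03 and 41.8 CPM, and 5 cells held 81 of the 127 Motolimod UMIs and 67 of the 170 Control UMIs. As counted, the tumour level in neither library exceeded that of T cells by more than counting error. Without the 5 richest cells T cells had 16.8 CPM in the Motolimod library and 25.9 CPM in the Control library.

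Ptgs1, the constitutive cyclooxygenase (chr2:36230426-36252272, plus strand), was low in neutrophils and highest in Ccl8 Ccl24 macrophages, tumour cells and, in the Control library, mast cells. Ccl8 Ccl24 macrophages had 60.1 CPM with motolimod and 52.1 CPM in the Control library (1.15, 0.962 to 1.37). Tumour cells had 36.1 and 37.6 CPM (0.962, 0.802 to 1.15), with a UMI in 72.4% of 76 Motolimod and 66.0% of 789 Control cells. Neither population differed beyond counting error. Over all monocyte/macrophage-like cells Ptgs1 was at 15.2 CPM with motolimod and 22.2 CPM in the Control library (0.684, 0.616 to 0.758). The ratio was 1.07 when the clusters of each library were weighted by their share of Control UMIs, so it turned direction with the make-up of the class. In neutrophil-like cells 58 UMIs among 2990 Motolimod cells and 1 UMI among 517 Control cells were read, too few for the filter on low values. The 31 Control mast cells had 69.8 CPM from 10 UMIs, and the 9 Motolimod mast cells were too few to give a level.

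Ptges, the synthase that forms prostaglandin E2 from the cyclooxygenase product (chr2:30889471-30929863, minus strand), had the highest ratio in neutrophils among the 6 members with a mean level of at least 5 CPM. Neutrophil-like cells had 35.0 CPM with motolimod and 3.67 CPM in the Control library, a ratio of 9.53 (4.03 to 29.6) that rests on 234 UMIs against 5. A Ptges UMI was read in 149 of 2990 Motolimod neutrophils and 5 of 517 Control neutrophils. The Serf1 Creg1 cluster held 212 of the 234 Motolimod UMIs, at 50.1 CPM, against 1 UMI in its 33 Control cells (3.03, 0.537 to 120). Ccl6 Hcar2 neutrophils had 12 UMIs with motolimod and 0 in the Control library, under the filter on low values. Retnlg Cxcr2 neutrophils had 8.17 CPM with motolimod and 4.68 CPM in the Control library, from 10 and 4 UMIs (1.75, 0.504 to 7.63). Without the Serf1 Creg1 cluster the ratio was 2.92, with the Control mix of clusters 2.87, under a stricter cell filter 3.50 and with cells gated one by one 2.64. Most Motolimod UMIs thus lay in a cluster that was nearly all Motolimod, where the interval of the ratio included 1. With 1 library per group that cluster and that library cannot be told apart.

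**Figure D4:**
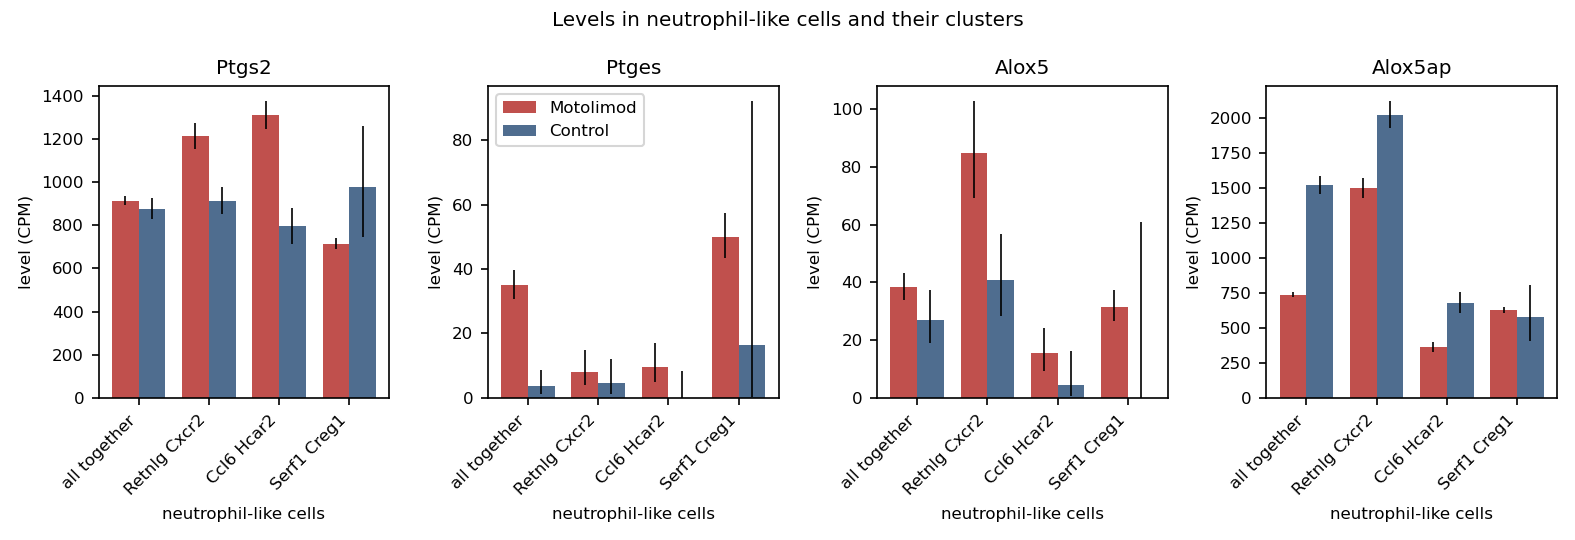
Levels (CPM) of Ptgs2, Ptges, Alox5 and Alox5ap in all neutrophil-like cells and in their 3 clusters, with Motolimod bars left of Control bars and 95% counting intervals as lines. Ptges is highest in the Motolimod Serf1 Creg1 cluster at 50.1 CPM, and Alox5ap is lower with motolimod in the Retnlg Cxcr2 and Ccl6 Hcar2 clusters but not in the Serf1 Creg1 cluster.

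Across populations Ptges was first a tumour transcript. Tumour cells had 149 CPM with motolimod and 136 CPM in the Control library (1.10, 1.01 to 1.198), with a UMI in 75 of 76 Motolimod and 728 of 789 Control cells and 7.66 and 5.45 UMIs per cell. The fibroblast-like cluster, also led by the osteoclast-associated genes Ctsk and Mmp9, had 105 CPM in 22 Motolimod cells and 38.2 CPM in 54 Control cells (2.74, 1.80 to 4.16). Gpnmb Cd36 macrophages came after the fibroblast-like cells in the Motolimod library and before them in the Control library, at 71.8 CPM against 88.6 CPM (0.811, 0.580 to 1.16). In that cluster 5 cells held 117 of 266 Motolimod UMIs and 34 of 40 Control UMIs, and without those cells the levels were 40.7 and 14.5 CPM (2.81), the other direction. Monocyte/macrophage-like cells as a whole were at 10.53 CPM with motolimod and 2.16 CPM in the Control library (4.87, 3.98 to 5.9995). That ratio was lower, but above 1.5, when each cell counted equally (3.01) and with the Control mix of clusters (2.46). It was also above 1.5 after thinning (2.12) and with cells gated one by one (1.97). In the class 5 cells held 140 of 349 Motolimod UMIs and 47 of 132 Control UMIs. Without the 5 richest cells of each library the levels were 6.31 and 1.39 CPM. There, and with the Control mix, the mean level was under 5 CPM, so neither counts as past the threshold. Ptges was also not counted as past it with cells gated one by one. The Gpnmb Cd36 cluster was 14.8% of the class with motolimod and 1.43% in the Control library. Mmp12 Arg1 macrophages had 24.4 CPM against 6.32 CPM (3.86, 2.62 to 5.67), with 47 of 54 Motolimod UMIs in 5 cells, and without the 5 richest cells of each library 3.24 CPM against 3.82 CPM (0.849). Dendritic cell-like cells had 0 Ptges UMIs in the Motolimod library, which allows up to 1.43 CPM, and 2 UMIs in the Control library.

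The RefSeq promoter window of Ptges (GRCm38.p6, chr2:30903248-30903547, minus strand) is given for comparison with that of Ptgs2, since the enzymes act in sequence and were both higher in the class of macrophages. It was searched for the same motifs, marked in capitals.
Ptges: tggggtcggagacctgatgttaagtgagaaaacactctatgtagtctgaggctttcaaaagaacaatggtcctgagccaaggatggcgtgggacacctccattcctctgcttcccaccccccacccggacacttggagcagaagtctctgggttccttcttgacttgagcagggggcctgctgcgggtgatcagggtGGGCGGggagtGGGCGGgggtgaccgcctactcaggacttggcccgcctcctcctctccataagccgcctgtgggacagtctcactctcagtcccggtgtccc
It holds GC boxes at bases 198 to 203 and 209 to 214, and no match to the other 5 motifs. The E-box and CRE core of the Ptgs2 window are thus not in this one, and the GC box is the letter pattern that both windows share.

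Hpgds, the prostaglandin D2 synthase of blood cells (chr6:65117293-65144908, minus strand), belonged to macrophages and mast cells. The 31 Control mast cells had 119 CPM (69.1 to 190.0), the highest of the 19 Control populations. Monocyte/macrophage-like cells had 38.8 CPM with motolimod and 44.6 CPM in the Control library (0.871, 0.815 to 0.931). Among the clusters with the highest macrophage levels, Ccl8 Ccl24 macrophages had 53.9 and 63.5 CPM (0.849), Lyve1 Cd209f macrophages 64.0 and 60.5 CPM (1.06) and Cbr2 Tppp3 macrophages 47.2 and 47.1 CPM (1.00, or 1.45 without the 5 richest cells). Cd72 Cxcl9 macrophages had 45.5 CPM with motolimod and 53.5 CPM in the Control library (0.850, 0.745 to 0.968) and the cycling cluster 40.5 and 50.4 CPM (0.804, 0.664 to 0.968), both lower by more than counting error. Ly6c2 Chil3 monocytes had 5.34 CPM with motolimod and 11.2 CPM in the Control library (0.476, 0.286 to 0.757). Gpnmb Cd36 macrophages had 32.7 CPM against 8.86 CPM (3.69, 1.40 to 13.8), the Control value from 4 UMIs. Neutrophil-like cells had 16.4 and 16.1 CPM, but the ratio moved with the cells taken in: its counting interval ran from 0.640 to 1.69, and it was 0.328 without the Serf1 Creg1 cluster, 0.338 with the Control mix of clusters, 0.679 when each cell counted equally and 8.15 in cells of at least 5000 UMIs. Among them the Ccl6 Hcar2 cluster had 7.31 CPM with motolimod and 42.6 CPM in the Control library (0.172, 0.0684 to 0.398), from 9 and 19 UMIs.

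Tbxas1, the thromboxane synthase (chr6:38875404-39084585, plus strand), was highest in macrophage clusters and lower over the dendritic class, at 36.8 CPM with motolimod and 29.4 CPM in the Control library. The cDC1-like cells had 34.7 and 47.7 CPM. Their Control interval overlapped those of the Mmp12 Arg1 (45.5 CPM), Ly6c2 Chil3 (42.3 CPM) and Gpnmb Cd36 clusters (37.6 CPM). Tbxas1 stood at 80.5 CPM with motolimod and 62.3 CPM in the Control library over monocyte/macrophage-like cells (1.29, 1.23 to 1.36). All 8 clusters had a ratio above 1, from 1.13 in Cbr2 Tppp3 macrophages to 1.40 (1.19 to 1.64) in Ly6c2 Chil3 monocytes, and none reached 1.5. The intervals of Cbr2 Tppp3 (0.885 to 1.45), Gpnmb Cd36 (0.829 to 2.39), Ccl8 Ccl24 (0.981 to 1.31) and Lyve1 Cd209f macrophages (0.976 to 1.51) included 1. In Gpnmb Cd36 macrophages 5 of 61 Control cells held 13 of 17 UMIs, and the ratio without the 5 richest cells of each library was 4.45. Lyve1 Cd209f macrophages were highest in both libraries, at 124 and 102 CPM, with an interval that overlapped that of the next cluster. Neutrophil-like cells had 4 UMIs in 2990 Motolimod cells and 8 UMIs in 517 Control cells. Migratory dendritic cells had 29.0 CPM with motolimod and 9.31 CPM in the Control library (3.11, 1.44 to 6.90). In the same cells 10 macrophage markers summed to 4548 CPM with motolimod and 1481 CPM in the Control library, 10 and 7 of them above 50 CPM, and the 5 markers of migratory dendritic cells to 3512 and 8134 CPM. The part of macrophage RNA in that ratio was not tested.

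Alox5ap, the 5-lipoxygenase activating protein (chr5:149264767-149288153, plus strand), was the member read in most cells: 92.1% of Motolimod and 94.9% of Control monocyte/macrophage-like cells had a UMI. It was lower in motolimod neutrophils. Neutrophil-like cells had 738 CPM with motolimod and 1518 CPM in the Control library (0.486, 0.462 to 0.512), and 1.65 and 4.002 UMIs per cell. After thinning, 40.04% of Motolimod and 61.3% of Control neutrophils had a UMI, against 6.47% and 8.50% of T cells. Retnlg Cxcr2 neutrophils, the highest population for this gene in each library, had 1498 CPM against 2023 CPM (0.740, 0.693 to 0.791). Ccl6 Hcar2 neutrophils had 364 CPM against 679 CPM (0.536, 0.462 to 0.622). Serf1 Creg1 neutrophils had 627 and 579 CPM (1.08, 0.776 to 1.56), or 2.32 without the 5 richest cells, which held 22 of the 35 Control UMIs. In the same neutrophils 10 macrophage markers summed to 722 CPM with motolimod and 1033 CPM in the Control library, all 10 detected in each. T cells also had less Alox5ap, at 110 CPM with motolimod and 211 CPM in the Control library (0.519, 0.454 to 0.592). The part of other cells' RNA in the neutrophil ratio was not tested. With the Control mix of clusters the ratio over all neutrophils was 0.716, and with doublets kept 0.675, neither past 1.5-fold.

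Monocyte/macrophage-like cells had 910 CPM with motolimod and 739 CPM in the Control library (1.23, 1.21 to 1.25), yet the highest ratio among the 8 clusters was 1.05 (1.02 to 1.09), in Cd72 Cxcl9 macrophages, and Cbr2 Tppp3 macrophages had 1278 CPM against 1520 CPM (0.841, 0.792 to 0.893). Dendritic cell-like cells had 1100 and 1053 CPM (1.05, 0.994 to 1.10). Their migratory type had 661 CPM with motolimod against 342 CPM (1.94, 1.69 to 2.21), beside the macrophage markers given above. Tumour cells had 8.20 and 6.06 CPM (1.35, 0.901 to 1.98), with 29 of 32 Motolimod UMIs in 5 of 76 cells, and without the 5 richest cells of each library 0.847 CPM against 3.37 CPM.

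Alox5, the 5-lipoxygenase itself (chr6:116410077-116461178, minus strand), was sparse outside a few populations. Retnlg Cxcr2 neutrophils had 84.9 CPM with motolimod and 40.9 CPM in the Control library (2.08, 1.40 to 3.14), and were its highest population in the Motolimod library. All neutrophil-like cells had 38.4 CPM against 27.2 CPM (1.42, 0.9998 to 2.06), and the ratio was 1.76 without the Serf1 Creg1 cluster, 2.10 with doublets kept, 2.20 with the Control mix of clusters and 3.18 in cells of at least 5000 UMIs. In the Serf1 Creg1 cluster 134 UMIs gave 31.7 CPM with motolimod, and the 33 Control cells had none, which allows up to 49.7 CPM. In Retnlg Cxcr2 neutrophils the Alox5 transcript was thus higher with motolimod, while that of its partner Alox5ap was lower but within 1.5-fold (0.740). Of all genes in that cluster, 40.9% were past 1.5-fold either way. Lyve1 Cd209f macrophages had 35.4 CPM with motolimod and 66.5 CPM in the Control library (0.533, 0.366 to 0.762). The cDC2-like cells had 8.65 CPM against 20.3 CPM (0.425, 0.181 to 0.895), where all 9 Motolimod UMIs and 31 of 38 Control UMIs lay in 5 cells. Control mast cells had 174 CPM (113 to 258). Tumour cells had 0 UMIs in 76 Motolimod cells, which allows up to 0.769 CPM, and 3 UMIs in 789 Control cells.

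Lta4h, the hydrolase that makes leukotriene B4 (chr10:93453411-93484875, plus strand), was highest in cDC2-like cells, at 163 CPM with motolimod and 144 CPM in the Control library (1.14, 0.931 to 1.38). Dendritic cell-like cells as a class had 119 CPM against 97.6 CPM (1.22, 1.05 to 1.43). Tumour cells had 55.9 and 59.4 CPM (0.941, 0.814 to 1.08, but 0.192 after thinning), T cells 69.5 and 66.8 CPM (1.04, 0.861 to 1.25) and monocyte/macrophage-like cells 32.2 and 37.0 CPM (0.869, 0.807 to 0.935). Neutrophil-like cells were lowest of the main populations, at 12.0 and 13.2 CPM (0.905, 0.538 to 1.60), with a ratio of 0.595 when doublets were kept and 1.70 under the stricter cell filter.

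Ltc4s, the leukotriene C4 synthase (chr11:50236461-50238616, minus strand), was higher over the class of macrophages, in which the shares of the clusters differed between the libraries. Monocyte/macrophage-like cells had 74.6 CPM with motolimod and 36.4 CPM in the Control library (2.05, 1.94 to 2.17). Lyve1 Cd209f macrophages, a perivascular-like state, were highest at 494 CPM with motolimod and 665 CPM in the Control library (0.743, 0.672 to 0.820). Cbr2 Tppp3 macrophages followed at 206 CPM against 325 CPM (0.634, 0.557 to 0.725). The intervals of these 2 clusters did not overlap in either library. In the Cbr2 Tppp3 cluster 5 of the 141 Control cells held 143 of 262 UMIs, while 5 of the 1824 Motolimod cells held 110 of 1770. Without them the levels were 194 and 163.2 CPM (1.19), the other direction, while the Lyve1 Cd209f ratio was then 0.742. Among the rest, Mmp12 Arg1 macrophages had 4.52 CPM against 21.7 CPM (0.208, 0.0984 to 0.391) and Ccl8 Ccl24 macrophages 8.86 CPM against 17.5 CPM (0.506, 0.314 to 0.779). Cbr2 Tppp3 macrophages were 42.3% of the class with motolimod and 3.31% in the Control library, and held 66.5% and 10.51% of all Ltc4s UMIs. With the Control mix of clusters the ratio over the class was 0.679, the reverse of the value above, and in cells of at least 5000 UMIs it was 1.501. Dendritic cell-like cells had 17.7 CPM with motolimod and 26.4 CPM in the Control library (0.671, 0.452 to 0.973), with a ratio of 0.310 after thinning. The NK cell-like cells had 81.1 and 164 CPM, with 35 of 36 Control UMIs in 5 of 38 cells, in barcodes whose 10 macrophage markers summed to 4728 and 5367 CPM.

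**Figure D5:**
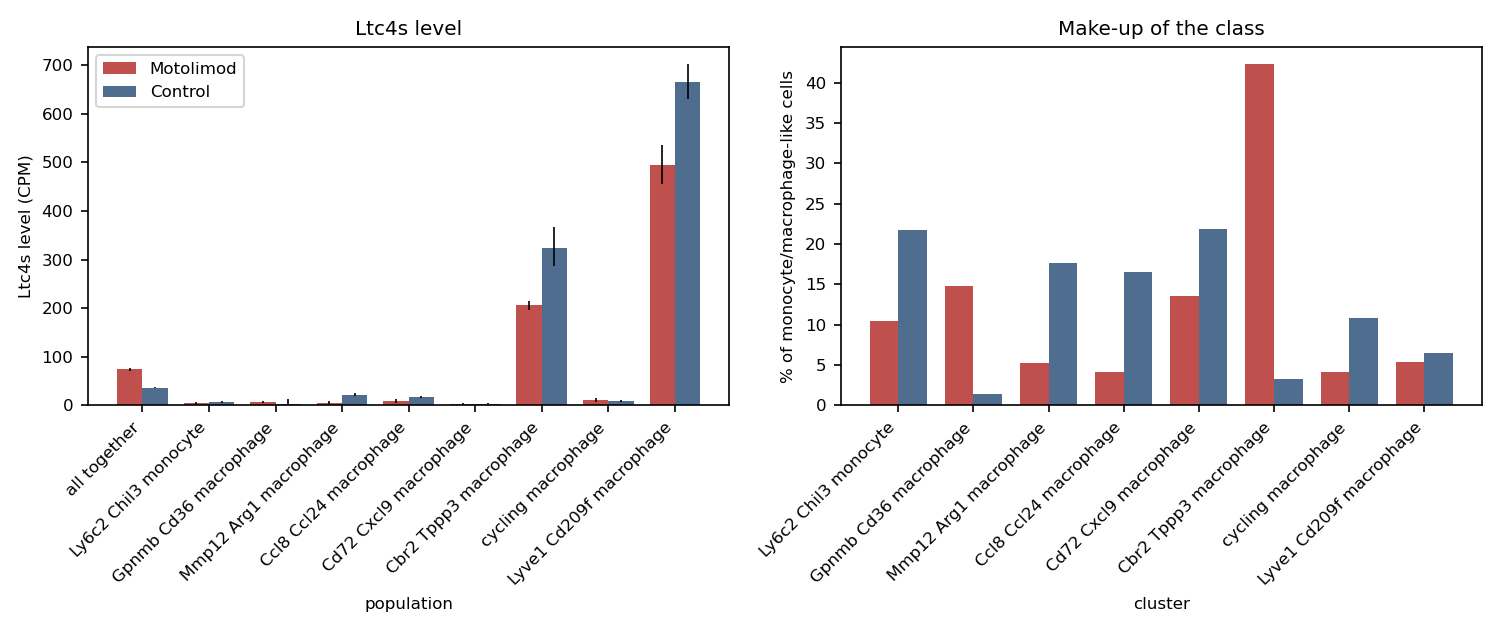
Left, Ltc4s level (CPM) in all monocyte/macrophage-like cells and in each of their 8 clusters, with 95% counting intervals as lines; right, percentage of the class in each cluster; Motolimod bars stand left of Control bars. The level over the class is higher with motolimod (74.6 against 36.4 CPM) while the Lyve1 Cd209f bar is lower (494 against 665 CPM), and the Cbr2 Tppp3 cluster is 42.3% of the class with motolimod and 3.31% in the Control library.

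The promoter window of Ltc4s (GRCm38.p6, chr11:50238483-50238782, minus strand) is shown because the ratio of Ltc4s over the class turned with the mix of clusters.
Ltc4s: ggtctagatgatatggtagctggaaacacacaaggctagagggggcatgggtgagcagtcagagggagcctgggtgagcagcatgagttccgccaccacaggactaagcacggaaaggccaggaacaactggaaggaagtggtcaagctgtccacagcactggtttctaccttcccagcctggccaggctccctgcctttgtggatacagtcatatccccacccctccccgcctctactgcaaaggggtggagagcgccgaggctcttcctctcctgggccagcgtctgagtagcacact
None of the 6 motifs matched in this window, so it has no capitals. Of the 9 members, 8 had a window in the RefSeq table. Tbxas1 held the AP-1 letters and overlapping matches to the TATA box, and Alox5 a GC box.

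Other genes of the pathway were read from a list of 47 genes, of which 46 matched a row. In neutrophil-like cells 15 were at or above 5 CPM on average, 6 of them at least 1.5-fold higher and 7 at least 1.5-fold lower with motolimod, beside the 24.9% and 19% of all genes given above. The receptor Ptger2, through which cells sense prostaglandin E2, had 47.5 CPM with motolimod and 4.40 CPM in the Control library (10.8, 4.91 to 29.6), from 318 and 6 UMIs. The transporter Abcc1, which exports leukotriene C4, had 87.6 CPM against 19.8 CPM (4.42, 3.01 to 6.77), and the lipoxin and formyl-peptide receptor Fpr2 had 270 CPM against 122 CPM (2.22, 1.89 to 2.61). Ptgr1, which inactivates leukotriene B4 and prostaglandins, had 79 UMIs with motolimod and 0 in the Control library, at least 5.36-fold higher against the 3 counts that a 0 allows. On the low side, the leukotriene B4 receptor Ltb4r1 had 84.0 CPM against 189 CPM (0.445, 0.384 to 0.518). The cysteinyl leukotriene receptor Cysltr1 had 3.74 CPM against 16.1 CPM (0.231, 0.125 to 0.431). The lowest others were Akr1b3 (0.276), Pla2g15 (0.287) and Prxl2b (0.299), each from under 40 UMIs in either library. In single neutrophil clusters Fpr2 was at least 1.5-fold higher and Cysltr1 at least 1.5-fold lower in each. Ptger2 was higher past that fold in the Retnlg Cxcr2 and Ccl6 Hcar2 clusters only. Abcc1 was so in the Ccl6 Hcar2 and Serf1 Creg1 clusters only, and Ptgr1 in none. Ltb4r1 was lower past it in Ccl6 Hcar2 only. The Serf1 Creg1 cluster was 62.7% of Motolimod and 6.38% of Control neutrophils, and its part in the class ratios was not tested.

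Of all genes in monocyte/macrophage-like cells, 8.79% were at least 1.5-fold higher and 5.62% at least 1.5-fold lower. Of the list, 19 genes were measured there, at a median log2 ratio of 0.25 where that of all genes was 0.04. Of these, 5 were at least 1.5-fold higher and 0 lower. They were Fpr2 at 37.7 CPM with motolimod and 17.5 CPM in the Control library (2.15), Ptgr1 at 24.9 and 12.4 CPM (2.01), Abcc1 at 35.5 and 20.5 CPM (1.73), the prostaglandin exporter Abcc4 at 9.20 and 5.32 CPM (1.73) and the prostaglandin E2 receptor Ptger4 at 33.0 and 19.1 CPM (1.72, 1.59 to 1.87). Ltb4r1 had 64.8 CPM in both (0.999, 0.948 to 1.05), and Cysltr1 48.2 and 40.4 CPM (1.19). The lowest were Ptges2 (0.696), Prxl2b (0.747), Cbr1 (0.785) and Akr1b3 (0.827). In dendritic cell-like cells, where 12.8% of all genes were higher and 6.13% lower, 18 were measured, 7 higher and 1 lower. They were led by Cyp4f18, an enzyme that breaks down leukotriene B4, at 51.6 CPM against 24.5 CPM (2.11, 1.61 to 2.75), and by the arachidonate-releasing phospholipase Pla2g4a at 13.8 CPM against 6.59 CPM (2.10, 1.23 to 3.59). Next came Pla2g7, which breaks down platelet-activating factor, at 33.4 CPM against 17.7 CPM (1.89) and the glutathione transferase Mgst3 at 68.8 CPM against 39.3 CPM (1.75). Cbr1 was the 1 lower gene (0.502, 0.202 to 1.09), from 8 and 37 UMIs, followed by Prxl2b (0.773), Ptges3 (0.907) and Akr1b3 (0.969). The receptors Ptger4 (1.12), Ltb4r1 (1.38) and Cysltr1 (1.31) stayed within 1.5-fold. In tumour cells, where 3.35% of all genes were higher and 2.16% lower, 12 were measured and none passed 1.5-fold. The highest were the prostaglandin transporter Slco2a1 (1.42, 1.08 to 1.84), Abcc1 (1.36), the phospholipase Pla2g6 (1.30) and Ptges3 (1.06), and the lowest Mgst3 (0.701, 0.639 to 0.766), Mgst2 (0.765), Akr1b3 (0.911) and Pla2g7 (0.943).

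Likeness of pattern was described over 37 profiles, the populations of at least 20 cells in either library, as Pearson's r of log2(CPM + 10) among 6425 genes. The profiles share 2 libraries and their depth, so the values are descriptions. Ptgs2 was most like Slc7a11, a cystine transporter subunit (r = 0.911), Sra1 (0.893) and the neutrophil attractant Cxcl3 (0.891). Ptges was most like Igf2bp2 (0.888), Cav1 (0.847) and Fosl1 (0.830). Alox5ap followed Kctd12 (0.916), Nrros (0.913) and the interleukin-10 receptor chain Il10ra (0.898), and Alox5 followed Gcnt1 (0.779), Egr3 (0.746) and Rgs18 (0.736). Ltc4s was most like Calml4 (0.879), Ednrb (0.877) and Cbr2 (0.860), of which Cbr2 names 1 of its clusters. Tbxas1 had the closest partners, P2ry6 (0.939), Frmd4b (0.924) and Slc7a7 (0.9196). The partners of Lta4h were H2afy (0.873), Arpc5l (0.862) and Dnajc7 (0.856), those of Hpgds P2rx7 (0.809), P2rx4 (0.797) and Snx8 (0.779), and those of Ptgs1 Cd276 (0.761), Tspan4 (0.724) and Poldip2 (0.714).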

How the data were processed

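Dissociated tumour cells enriched on CD45 beads were captured with a 10x Genomics 3′ kit, 1 library per group, per the labels' protocols. The deposited files hold raw UMI counts per gene and barcode, against mm10. The submitters' processing notes name Cell Ranger 5.0.1, while per the file headers the matrices were written by cellranger 7.1.0. The other upstream settings are not given in the sources used here.

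Barcodes with at least 300 genes, 800 UMIs and at most 10% mitochondrial UMIs passed (9314 Motolimod and 7484 Control). The automatic doublet threshold of Scrublet called 0 in each library and was not used. Instead the highest scores, 0.8% per 1000 barcodes, were removed, with barcodes that held core genes of more than 1 lineage (1098 Motolimod and 915 Control in all). Both libraries were clustered together without integration (scanpy 1.11.5, 2000 variable genes without the 9 members and the pathway list, 30 components, 15 neighbours, Leiden resolution 1, seed 1). Classes were named from fixed marker sets by cluster, and cluster names, the rule for leading genes and the doublet steps were set after the data were seen. T cell-like, NK cell-like and dendritic cell-like names rest on a further clustering of the clusters that scored highest for those markers. Fibroblast-like and mast cell-like names rest on the first clustering.

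UMIs were summed per library and population. Levels carry exact Poisson intervals, ratios exact conditional binomial intervals and shares of cells Clopper-Pearson intervals, all at 95%. UMI counts of 1 library are not replicates, so no p-value was computed. Ratios count as past the threshold at 1.5-fold among genes with a mean of at least 5 CPM over the libraries, and a count of 0 is set to 3 counts. The ratio and its interval were tested on simulated data. Those were Poisson counts, the model that the interval assumes, so the uneven spread of UMIs over cells was not covered. The named genes are the 9 members, up to 4 highest and 4 lowest ratios and any measured receptor of the pathway list in each main population, and the 3 genes most like each member. The members and lists were chosen with earlier results of these data known. Coordinates are from GENCODE M21 (mm10), promoters from RefSeq (GRCm38.p6). Alternatives were 9 planned and 4 added after seeing the data. One of these leaves out, for each gene, the 5 cells of each library that hold most of its UMIs, which takes a larger share of a small population.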

Additional observations from a re-analysis of the deposited data

Results flagged for a closer look

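Ptgs2 differed between the libraries in opposite directions in clusters of 1 class, by at least 1.5-fold each and with at least 20 UMIs in each library. The ratio, Motolimod over Control, was 2.35 (1.52 to 3.67) in Lyve1 Cd209f macrophages, at 44.9 CPM against 19.1 CPM, and 0.531 (0.464 to 0.610) in Gpnmb Cd36 macrophages, at 308 CPM against 580 CPM. Without the 5 cells of each library richest in Ptgs2 the ratios were 1.98 and 0.793, so the second was no longer past 1.5-fold. The Lyve1 Cd209f levels came from 52 Motolimod and 38 Control UMIs, and T cells, the background, had 45.03 and 41.8 CPM. Of all genes, 27.6% in the Lyve1 Cd209f and 37.8% in the Gpnmb Cd36 cluster were past 1.5-fold either way. The difference was not tested, because each group has 1 library.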

How the results depend on the processing

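No paired analysis was possible because each group has 1 library, and no library could be left out. Over 9 alternatives and 4 more chosen after seeing the data, 223 ratios of members in the main populations stayed within the counting interval of the reported value, 67 moved out of it and 1, reported past 1.5-fold, turned direction. In all 29 of 291 lay on the other side of 1, most of them reported within 1.5-fold, such as Ptgs1 in monocyte/macrophage-like cells (1.07), Alox5 (2.48) and Hpgds (0.413) in thinned dendritic cell-like cells and Alox5ap in tumour cells with doublets kept (0.624). The ratio past 1.5-fold that turned is Ltc4s in monocyte/macrophage-like cells, 0.679 with the Control mix of clusters against 2.05. In single clusters and smaller classes, without the 5 cells of each library with most UMIs of the gene, 68 ratios stayed within the interval, 19 moved out of it and 5 past 1.5-fold turned direction: Ltc4s (6.06) and Tbxas1 (2.70) in NK cell-like cells, Ptges in Mmp12 Arg1 macrophages (0.849), and Ptgs2 (1.02) and Ltc4s (1.19) in Cbr2 Tppp3 macrophages. A ratio left with 0 UMIs in a library has no such value. Counts of members past 1.5-fold were small and moved easily. In neutrophil-like cells (1 higher, 1 lower) they were 2 and 2 with the mean over cells, with no filter on low values and without the Serf1 Creg1 cluster, and 3 and 2 in cells of at least 5000 UMIs. There 4 were higher with doublets kept, 3 with cells gated one by one, and 2 under the stricter cell filter and with the Control mix of clusters. In monocyte/macrophage-like cells (3 higher, 0 lower) 1 was lower under median-of-ratios scaling and under the stricter filter (Ptgs1). There 1 was higher with cells gated one by one and with the Control mix. Ptgs2 fell under 1.5-fold in that class with the mean over cells, after thinning, under median-of-ratios scaling and at Leiden resolution 2. In dendritic cell-like cells (1 higher, 0 lower) 0 were higher and 2 lower under median-of-ratios scaling and after thinning to 1000 UMIs, and 0 higher with doublets kept. There 1 was lower in cells of at least 5000 UMIs and at Leiden resolution 2, and under the stricter filter 0 were higher and 1 lower. In tumour cells (1 higher, 0 lower) 1 was lower after thinning and with no filter on low values, and with doublets kept 0 were higher and 1 lower. Ptgs2 in tumour cells also fell under 1.5-fold with cells gated one by one. Without the 5 cells richest in each gene, 3 were higher in neutrophil-like cells, 1 was lower in monocyte/macrophage-like cells and 2 were higher, 0 were higher and 1 lower in dendritic cell-like cells, and 0 were higher in tumour cells. The causes of these moves were not tested. Depth limits the members where single populations held under 10 UMIs.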
